A study of Mus musculus with 24 samples.

Results

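The comparison set 4 libraries of lung shRenilla cells against 4 libraries of tumor shRenilla cells, which are 8 of the 24 libraries of the series. They were chosen by their titles alone, and every gene was considered. Of 23478 gene symbols, 12625 had enough reads to be tested. The cells are of 4T1-T, a line from the 4T1 mouse mammary carcinoma, a common model of breast cancer that spreads to the lung. Lung shRenilla cells came out of lung metastases and tumor shRenilla cells out of primary tumors. All 8 libraries share the rest of their labels. By their labels the cells carried shRenilla, a hairpin against a luciferase that mouse cells lack, the usual control for hairpins such as those against Asns. They had been selected with 6TG (6-thioguanine) and the medium was DMEM to which non-essential amino acids were added. The labels name neither the mice nor their number, so a library is the unit of replication and the p-values measure only the spread between libraries. That spread may be partly technical. The cells had been cultured after isolation, so the levels are those of selected cells in a dish and not of tissue.

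Carcinoma cells of epithelial origin are held together by E-cadherin junctions, tight junctions and desmosomes. They can shift towards a mesenchymal state, in which factors such as the Snail, Zeb and Twist proteins lower the junction genes and cells become more motile. Cells recovered from a metastasis have left the primary site and grown in another organ. The comparison therefore asks which genes differ between cells of a distant and a primary site when both are labelled with the same control hairpin.

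Total RNA was sequenced and reads were counted per gene symbol. Total counts per library were 26344829 to 34342195 in lung shRenilla and 27945673 to 29765907 in tumor shRenilla, and 8480908 to 38049196 over all 24 libraries. Levels are CPM values, read counts scaled to a common library size with TMM factors. The first principal component of the 8 libraries, with 50.5% of the variance, placed lung shRenilla at -40.4 to -24.2 and tumor shRenilla at 24.8 to 34.2. Lung shRenilla B stood apart from the other 7 libraries on the second component (23% of the variance), at -46.3, with the others between -9.16 and 20.9. It lay more than 2-fold from the rest of its group in 342 of 7972 genes, against 0 to 16 genes for each other library. The mean GC content of its counted genes was 46%, against 46.8 to 47.2% in the other 7. Its part in a result was measured by leaving it out. Asns, the gene of asparagine synthetase, which is not targeted by shRenilla, had 69.1, 53.1, 70.2 and 62 CPM in lung shRenilla A to D, and 84.6, 84.6, 61.7 and 100 CPM in tumor shRenilla A to D. The groups overlapped and Asns was not called (log2 fold change -0.38 ± 0.16 SE, adjusted p = 0.0851). It was called lower in 3 of 16 alternatives, among them the fit without tumor shRenilla C, with adjusted p-values from 0.0196 to 0.229 over all 16. Hprt, whose loss gives resistance to 6-thioguanine, averaged 626 ± 115 CPM in lung and 637 ± 97 CPM in tumor (SD, n = 4 each) and was not called (adjusted p = 0.931).

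Lung shRenilla cells differed from tumor shRenilla cells in 2749 of 12625 genes, 21.8% of those tested, at an adjusted p under 0.05. Of these, 1509 were higher in lung (12% of all genes tested) and 1240 were lower (9.82%). A change of at least 2-fold was seen in 735 of the called genes, 5.82% of those tested. In 2807 genes, or 22.2%, all 4 lung libraries lay beyond all 4 tumor libraries. The median log2 fold change over all genes was 0.00. Without lung shRenilla B the count was 3227 genes, 1762 higher and 1465 lower, of which 2297 were among the 2749.

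Among called genes with a mean log2 CPM of 3 or more and the groups apart, the 12 with the highest log2 fold change in lung included the cytokine gene Tslp, the protease inhibitor gene Serpine2, the protease gene Mmp3 and the matrix protein gene Spp1. Tslp, an epithelial cytokine of type 2 immunity, had 542, 728, 515 and 482 CPM in lung shRenilla A to D and 58.9, 37.4, 37.8 and 50.1 CPM in tumor shRenilla A to D. Every lung library was above every tumor library, and the log2 fold change was 3.62 ± 0.20 (adjusted p = 1.62e-12). In bulk RNA of this kind, more cells that express a gene and more RNA per cell cannot be told apart. Serpine2, an inhibitor of serine proteases such as thrombin, had 579, 674, 467 and 668 CPM in lung and 104, 64.6, 46.3 and 65.5 CPM in tumor (3.09 ± 0.26, adjusted p = 1.53e-09). Mmp3, the matrix metalloproteinase stromelysin-1, had 651, 845, 503 and 672 CPM in lung and 118, 77.7, 61 and 91.5 CPM in tumor (2.94 ± 0.23, adjusted p = 3.5e-10). Spp1, which encodes the matrix protein osteopontin, had 5004, 7411, 4503 and 5566 CPM in lung and 1552, 875, 809 and 1044 CPM in tumor (2.39 ± 0.22, adjusted p = 4.23e-09). In all of these genes the 2 groups of 4 libraries did not overlap, which was part of the choice.

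The other 8 of the 12 genes are membrane, secreted and intracellular proteins. Amigo2, a cell adhesion protein, had 38.2, 68.8, 38 and 40.5 CPM in lung and 4.19, 2.57, 3.4 and 5.64 CPM in tumor (3.55 ± 0.24). Casp1, the protease that matures interleukin-1 beta and interleukin-18, had 22.5, 42.2, 21.2 and 33 CPM in lung and 4.79, 3.46, 2.67 and 4.13 CPM in tumor (2.99 ± 0.25). Both were highest in lung shRenilla B and stayed apart from tumor in each of the other 3 lung libraries. Angpt1, a ligand of the endothelial receptor Tie2, averaged 38.1 ± 10.5 CPM in lung and 6.08 ± 1.38 CPM in tumor (2.65 ± 0.20). Dll4, a Notch ligand, averaged 21.7 ± 3.01 CPM in lung and 4.91 ± 0.66 CPM in tumor (2.14 ± 0.17). The remaining genes of the 12 were the pseudokinase gene Trib2 (2.91), the endopeptidase gene Phex (2.28), the organic anion transporter gene Slco4a1 (2.14) and the small GTPase gene Gem (2.12), all given as log2 fold changes. All 12 were called under each of 16 alternatives. The adjusted p-values of the genes in this paragraph ran from 1.65e-11 for Trib2 to 3.87e-09 for Slco4a1.

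**Figure D1:**
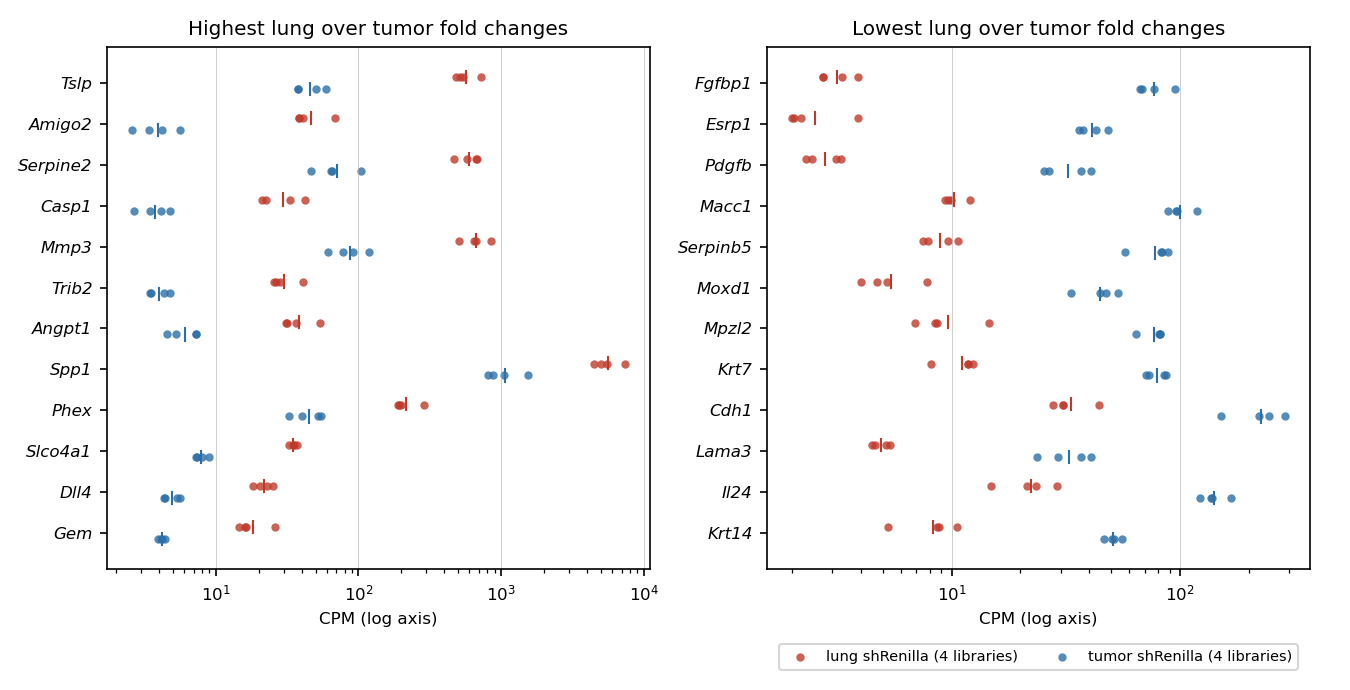
CPM per library (log axis) for the 12 called genes with the highest and the 12 with the lowest log2 fold change of lung over tumor, from genes with a mean log2 CPM of 3 or more and groups apart, which was part of the choice. Points are libraries (4 of lung shRenilla, 4 of tumor shRenilla) and ticks are group means: Tslp averaged 567 CPM in lung and 46 CPM in tumor, and Fgfbp1 3.16 CPM in lung and 76.8 CPM in tumor.

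By the same choice, the 12 genes with the lowest log2 fold change in lung included the splicing regulator gene Esrp1, the adhesion gene Cdh1 and the keratin genes Krt7 and Krt14. Fgfbp1, a carrier that releases fibroblast growth factors from the matrix, had 3.3, 2.73, 2.72 and 3.9 CPM in lung shRenilla A to D and 95.4, 68.3, 67 and 76.6 CPM in tumor shRenilla A to D (log2 fold change -4.60 ± 0.27, adjusted p = 2.66e-12). Esrp1, a splicing regulator that maintains epithelial isoforms, had 2.2, 3.88, 2.04 and 2 CPM in lung and 37.5, 43, 48.5 and 36.3 CPM in tumor (-4.02 ± 0.49, adjusted p = 7.05e-07). Cdh1, the gene of E-cadherin, had 30.8, 44.2, 30.6 and 27.7 CPM in lung and 244, 221, 288 and 151 CPM in tumor (-2.76 ± 0.19, adjusted p = 2.61e-11). In each of these 3 genes every lung library lay below every tumor library. Macc1, a regulator of the receptor gene Met in human colon cancer, had 9.92, 12, 9.6 and 9.39 CPM in lung and 88.5, 95.8, 119 and 97.1 CPM in tumor (-3.29 ± 0.17, adjusted p = 3.62e-13). Pdgfb, a platelet-derived growth factor chain, had 2.31, 3.27, 3.12 and 2.44 CPM in lung and 26.6, 36.8, 40.6 and 25.3 CPM in tumor (-3.53 ± 0.23, adjusted p = 1.65e-11). Krt7, a keratin of simple epithelia, had 11.8, 8.08, 12.4 and 11.8 CPM in lung and 71.1, 85, 87 and 73.4 CPM in tumor (-2.84 ± 0.24, adjusted p = 1.92e-09). Krt14, a keratin of basal epithelium, averaged 8.32 ± 2.21 CPM in lung and 50.8 ± 3.8 CPM in tumor (-2.61 ± 0.18). The groups were apart in all of them, which was part of the choice.

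The other 5 of the 12 lowest genes were also called lower under each of 16 alternatives. Serpinb5, the gene of the epithelial serpin maspin, averaged 8.91 ± 1.46 CPM in lung and 78 ± 14.1 CPM in tumor (-3.13 ± 0.27). Lama3, a laminin chain of epithelial basement membranes, averaged 4.91 ± 0.43 CPM in lung and 32.7 ± 7.72 CPM in tumor (-2.73 ± 0.25). Il24, a cytokine of the interleukin-10 family, averaged 22.2 ± 5.86 CPM in lung and 141 ± 18.5 CPM in tumor (-2.67 ± 0.20). Mpzl2, an epithelial adhesion protein, averaged 9.64 ± 3.38 CPM in lung and 77 ± 8.5 CPM in tumor (-2.99 ± 0.19). Moxd1, a monooxygenase, averaged 5.41 ± 1.64 CPM in lung and 44.7 ± 8.57 CPM in tumor (-3.04 ± 0.20). Their adjusted p-values lay between 1.65e-11 for Mpzl2 and 4.25e-09 for Lama3.

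Most tested genes of epithelial junctions were lower in the lung cells. Of 18 listed genes of tight junctions and Epcam, 17 were tested, 13 were lower, 0 were higher and 4 were not called, with a median log2 fold change of -1.63 against 0.00 over all genes, of which 9.82% were lower and 12% higher. The genes that fell build the seal and its polarity complex: the claudins Cldn3 (-2.72), Cldn4 (-2.19) and Cldn7 (-1.63), Ocln for occludin (-1.83), Cgn for cingulin (-2.46) and Crb3 (-2.18). Epcam, an epithelial adhesion molecule, had 22, 21.7, 19.9 and 19.7 CPM in lung shRenilla A to D and 104, 69.5, 80.2 and 60.1 CPM in tumor shRenilla A to D (-1.91 ± 0.15, adjusted p = 3.92e-10). For Epcam all 4 lung libraries lay below all 4 tumor libraries. Tjp1, the scaffold protein ZO-1, was not called (-0.03, adjusted p = 0.904). Of 15 genes of adherens junctions and desmosomes, 12 were tested, 7 were lower (58.3%) and 1 was higher (8.33%, below the 12% of all genes), with a median of -0.72. Beside Cdh1, the desmosomal cadherin gene Dsg2 had 19.1, 32.2, 21.1 and 21.6 CPM in lung and 84.8, 72.6, 89.9 and 60.3 CPM in tumor (-1.71 ± 0.15, adjusted p = 4.14e-09). Ppl, for the plakin periplakin, was the 1 higher gene, with an average of 23.9 ± 2.36 CPM in lung and 14.6 ± 0.32 CPM in tumor (0.71 ± 0.17, adjusted p = 0.00384).

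Keratins did not move as 1 group. Of 12 listed keratins 6 were tested, 3 were lower (50%, against 9.82% of all genes) and 0 were higher. The lower ones were Krt7, Krt14 and Krt17 (-1.87), and the simple epithelial pair Krt8 and Krt18 was not called. Krt8 had 195, 140, 197 and 196 CPM in lung and 165, 180, 184 and 166 CPM in tumor (0.07 ± 0.15, adjusted p = 0.798). Krt18 had 328, 207, 321 and 321 CPM in lung and 257, 254, 181 and 242 CPM in tumor (0.33 ± 0.19, adjusted p = 0.227). In both, lung shRenilla B was the lowest lung library. Without it and lung shAsns-2 D, Krt18 was called higher in lung, as it was by limma with library weights, with adjusted p-values from 0.00526 to 0.514 over 16 alternatives. Keratins have near copies, among which reads may be divided.

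Most tested regulators of the epithelial state were lower as well. Of 17 listed regulators of epithelial splicing and transcription, 14 were tested (median -1.24). Of all genes 9.82% were lower and 12% higher, and of these regulators 1 was higher (7.14%) and 9 were lower (64.3%). Beside Esrp1, the lower ones were Esrp2 (-1.22), Ovol1 (-1.94), Ovol2 (-1.93), Grhl1 (-1.50), Grhl2 (-1.45), Elf3 (-1.26) and Foxa1 (-0.62), which encode a splicing factor and transcription factors of epithelia. Cdh1 stands in this list too. Grhl2 averaged 7.99 ± 1.45 CPM in lung and 21.8 ± 4.91 CPM in tumor (adjusted p = 1.27e-07). Rbm47, another RNA-binding protein of epithelia, was the 1 that was higher, at 22 ± 2.61 CPM in lung and 15.5 ± 1.89 CPM in tumor (0.51 ± 0.12, adjusted p = 0.00267).

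Snail and Zeb proteins bind the E-box letters CAGGTG, which on the other strand are read as CACCTG, and the promoters of several fallen genes hold them. The promoters of 4 fallen junction and keratin genes and of Slpi, a gene that was higher in lung, are shown for these letters, which are in capitals. The sequences are from RefSeq on GRCm38.p6 and run 5′ to 3′ on the gene's strand, from 250 bases before the start to 50 after it. They lie at chr17:87635729-87636028 (plus strand, Epcam), chr15:101412153-101412452 (plus, Krt7), chr5:134946885-134947184 (minus, Cldn4), chr17:57061951-57062250 (plus, Crb3) and chr2:164356458-164356757 (minus, Slpi). These promoters were picked after their letters had been read.
Epcam: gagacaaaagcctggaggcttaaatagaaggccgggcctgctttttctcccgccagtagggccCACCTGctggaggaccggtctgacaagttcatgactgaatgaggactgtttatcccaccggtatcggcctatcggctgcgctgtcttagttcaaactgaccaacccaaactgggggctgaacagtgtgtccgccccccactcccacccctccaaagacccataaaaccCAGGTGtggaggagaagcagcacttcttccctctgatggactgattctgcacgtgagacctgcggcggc
Krt7: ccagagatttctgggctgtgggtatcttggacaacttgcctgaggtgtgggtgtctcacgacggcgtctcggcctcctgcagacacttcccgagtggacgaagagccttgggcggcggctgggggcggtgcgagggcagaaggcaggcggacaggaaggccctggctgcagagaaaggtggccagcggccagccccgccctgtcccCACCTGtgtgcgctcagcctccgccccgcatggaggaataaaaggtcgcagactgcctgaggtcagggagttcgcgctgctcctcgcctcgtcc
Cldn4: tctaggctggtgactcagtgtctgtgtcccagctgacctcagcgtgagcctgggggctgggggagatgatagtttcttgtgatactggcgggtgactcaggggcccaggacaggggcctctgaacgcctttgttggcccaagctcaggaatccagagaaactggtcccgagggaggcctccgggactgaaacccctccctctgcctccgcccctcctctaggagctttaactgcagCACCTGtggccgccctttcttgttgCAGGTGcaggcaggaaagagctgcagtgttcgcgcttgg
Crb3: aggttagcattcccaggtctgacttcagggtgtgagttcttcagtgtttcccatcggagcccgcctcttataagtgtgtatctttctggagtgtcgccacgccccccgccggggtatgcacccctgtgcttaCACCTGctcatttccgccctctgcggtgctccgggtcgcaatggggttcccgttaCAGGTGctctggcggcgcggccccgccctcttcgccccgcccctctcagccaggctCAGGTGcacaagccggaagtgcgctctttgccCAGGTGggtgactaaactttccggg
Slpi: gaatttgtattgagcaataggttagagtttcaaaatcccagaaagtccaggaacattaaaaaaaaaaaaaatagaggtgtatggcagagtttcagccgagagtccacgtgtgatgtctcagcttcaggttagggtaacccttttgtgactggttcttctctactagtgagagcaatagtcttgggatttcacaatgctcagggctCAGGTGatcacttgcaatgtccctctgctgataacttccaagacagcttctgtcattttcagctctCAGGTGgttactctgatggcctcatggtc
Epcam had 2 matches, Krt7 1, Cldn4 2, Crb3 4 and Slpi 2. Over the table's 32851 promoters, 20.2% held CAGGTG on either strand, and over those of tested genes 17.7%. The share was 24% of 1087 promoters of genes called lower in lung and 15.9% of 1518 promoters of genes called higher. Among genes of the 4 epithelial lists that were called lower it was 60% of 25 promoters, for 18 of 31 genes that could be matched. Among all tested genes of those 4 lists it was 52.6% of 38 promoters. A match is a description of the letters and was not tested as a binding site.

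Several transcription factors of the epithelial-mesenchymal transition (EMT) were higher in the lung cells. Of 11 listed, 9 were tested, 4 were higher, 1 was lower and 4 were not called (median 0.60). Zeb2 had 82.5, 145, 75.9 and 81.7 CPM in lung shRenilla A to D and 54.4, 59.6, 64 and 59.8 CPM in tumor shRenilla A to D (0.70 ± 0.15, adjusted p = 0.000908). It was highest in lung shRenilla B and above tumor in the other 3 as well. Tcf4 averaged 225 ± 33.7 CPM in lung and 149 ± 7.61 CPM in tumor (0.60 ± 0.10, adjusted p = 9.73e-05). Foxc2 averaged 21.2 ± 3.76 CPM in lung and 12.7 ± 3.04 CPM in tumor (0.74 ± 0.18, adjusted p = 0.00378). Twist1 had 26.9, 29.5, 25.4 and 27.7 CPM in lung and 19.8, 17.1, 26.4 and 15.7 CPM in tumor, and the groups overlapped through tumor shRenilla C. It was called higher (0.47 ± 0.16, adjusted p = 0.0409), but the call ended in 10 of 16 alternatives, among them each fit without 1 library other than tumor shRenilla C (adjusted p up to 0.146). Snai3, a Snail family member, was the 1 that was lower, with 0.0758, 0.0321, 0.143 and 0.149 CPM in lung and 1.22, 2.14, 1.67 and 1.16 CPM in tumor (-3.89 ± 0.40, adjusted p = 4.16e-08). Zeb1 (0.61, adjusted p = 0.059), Prrx1 (1.28, adjusted p = 0.16), Snai1 (-0.16, adjusted p = 0.728) and Tcf3 (0.09, adjusted p = 0.794) were not called. Zeb1 was called without lung shRenilla A or C (lowest adjusted p = 0.044).

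Mesenchymal effector genes went both ways. Of 23 listed, 19 were tested, 5 were higher (26.3%, against 12% of all genes) and 2 were lower (10.5%, near the 9.82% of all genes). The median of the list was 0.08, and without lung shRenilla B 4 were higher and 4 lower. Vim, for the filament vimentin, had 3018, 3284, 3188 and 3130 CPM in lung and 2659, 2636, 3153 and 2606 CPM in tumor, overlapped through tumor shRenilla C and was not called (0.19 ± 0.12, adjusted p = 0.261). Fn1, for fibronectin, had 1113, 1459, 993 and 1190 CPM in lung and 1312, 1356, 1499 and 901 CPM in tumor (-0.09 ± 0.18, adjusted p = 0.771). The higher genes beside Spp1 were Cdh11 (1.63), Tagln (1.48), Acta2 (1.14) and Bgn (2.42, adjusted p = 0.022), which encode a cadherin, 2 proteins of the contractile skeleton and a proteoglycan. Postn, for the matrix protein periostin, was the lowest, with 0.227, 0.225, 0 and 0.0894 CPM in lung and 3.04, 3.31, 3.47 and 1.89 CPM in tumor (-4.40 ± 0.48, adjusted p = 1.28e-07). Loxl2, a collagen crosslinking enzyme, was lower too (-0.77, adjusted p = 0.0146). The call of Bgn ended without lung shRenilla D or tumor shRenilla A, C or D (adjusted p up to 0.119), and that of Loxl2 without tumor shRenilla A (adjusted p = 0.0882). Of 19 collagen chains, 16 were tested, with 12.5% higher and 12.5% lower, near the shares over all genes. Col5a2 (2.97, adjusted p = 0.000594) and Col6a1 (1.36, adjusted p = 1.88e-05) were higher, and Col7a1 (-0.69, adjusted p = 0.037) and Col8a1 (-0.47, adjusted p = 0.0377) were lower. The call of Col7a1 ended without lung shRenilla B or C or tumor shRenilla A, B or C (adjusted p up to 0.108), and that of Col8a1 without lung shRenilla A, C or D or tumor shRenilla A or C (adjusted p up to 0.149). Without lung shRenilla B 5 chains were higher and 1 lower. Fibroblast markers moved with these genes: 2 of 5 tested were higher and 1 lower, and the 9 together summed to 26.3 to 51.4 CPM in lung (highest in lung shRenilla B, 34.7 CPM at most without it) and 17.5 to 21.1 CPM in tumor. Most of that was Pdgfra, while Col1a1 had 21 counts over the 4 lung libraries and 2 over the 4 tumor libraries, and Thy1 had 5 counts in lung and 1 in tumor. Their part in the mesenchymal and collagen values was not tested.

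Integrin, laminin and metalloproteinase genes went both ways. Of 26 integrin and laminin subunits, 21 were tested (median -0.01). Of these, 5 were higher (23.8%, against 12% of all genes) and 6 were lower (28.6%, against 9.82%). The lower ones include the laminin chains Lama3 and Lamb3 (-1.21), and the integrin chains Itgb4 (-1.18) and Itgb6. Itgb6 had 3.56, 4.14, 2.83 and 3.52 CPM in lung shRenilla A to D and 22.6, 19.6, 16 and 17.9 CPM in tumor shRenilla A to D, without overlap (-2.43 ± 0.20, adjusted p = 1.23e-09). The higher ones were Itga1 (0.95), Itgb2 (0.53), Itgb3 (0.65), Itgb7 (1.00) and Lamb2 (1.11). Of 23 metalloproteinases and inhibitors, 21 were tested, 5 were higher (23.8%) and 2 were lower (9.52%, near the 9.82% of all genes). Mmp13 (1.32) and Mmp10 (0.80), both secreted proteases, rose with Mmp3, as did the inhibitor genes Timp3 (2.14) and Reck (0.68). Adamts1, a protease of proteoglycans, had 27.3, 46.5, 24.7 and 26.2 CPM in lung and 197, 190, 218 and 141 CPM in tumor (-2.58 ± 0.21, adjusted p = 7.93e-10). Adam12, a membrane-bound disintegrin protease, averaged 8.01 ± 0.62 CPM in lung and 39.6 ± 3.86 CPM in tumor (-2.30 ± 0.17, adjusted p = 1.18e-10). The groups were apart for both.

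All 20 listed targets of transforming growth factor beta (TGF-beta) and of the coactivator YAP were tested (median -0.41). In the lung cells 10 were lower (50%, against 9.82% of all genes), 2 were higher (10%, near the 12% of all genes) and 8 were not called. Ctgf, a matricellular protein and common readout of YAP, had 55.3, 89.7, 49.6 and 59.6 CPM in lung and 327, 339, 414 and 215 CPM in tumor (-2.35 ± 0.27, adjusted p = 2.73e-07). Cyr61, its relative, had 120, 109, 106 and 120 CPM in lung and 435, 419, 487 and 268 CPM in tumor (-1.82 ± 0.29, adjusted p = 4.13e-05). For both, all lung libraries lay below all tumor libraries, and tumor shRenilla D was the lowest of its group. Inhba (-1.68), Thbs1 (-1.16), Ajuba (-1.16) and the ligand gene Tgfb2 (-0.94) were also lower. Tgfbi (1.30, adjusted p = 0.00785) and Tgfb3 (0.33, adjusted p = 0.0473) were higher. The call of Tgfb3 ended in 9 of 16 alternatives, among them the fits without lung shRenilla A, C or D or tumor shRenilla A, C or D (adjusted p up to 0.172). Of 22 genes of AP-1 and the immediate early response, 21 were tested. Of these, 8 were lower (38.1%, against 9.82% of all genes) and 5 were higher (23.8%, against 12%). The AP-1 subunit genes Junb (-0.90) and Jund (-1.16) fell, and the phosphatase gene Dusp6, a feedback inhibitor of ERK, had 339, 484, 317 and 313 CPM in lung and 137, 141, 157 and 146 CPM in tumor (1.32 ± 0.13, adjusted p = 1.04e-08).

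Secreted signals were divided between the sites. Of 35 listed chemokines and cytokines 34 were in the counts and 31 were tested (median -0.05). Of these, 7 were higher (22.6%, against 12% of all genes) and 8 were lower (25.8%, against 9.82%). Beside Tslp, the alarmin gene Il33 had 2.69, 3.82, 1.79 and 3.81 CPM in lung shRenilla A to D and 0.445, 0.321, 0.234 and 0.35 CPM in tumor shRenilla A to D (3.16 ± 0.48, adjusted p = 2.14e-05). Il11 (1.88), Il18 (1.65), Il6 (1.64), Lcn2 (1.77) and Tnfsf9 (1.01) were the other higher genes. The neutrophil chemokine gene Cxcl1 had 87.3, 72.7, 90.4 and 96.6 CPM in lung and 413, 298, 291 and 325 CPM in tumor (-1.93 ± 0.14, adjusted p = 1.33e-10). Cxcl16, a T cell chemokine, averaged 16.8 ± 1.2 CPM in lung and 55.7 ± 6.08 CPM in tumor (-1.73 ± 0.14, adjusted p = 3.98e-10). Cxcl5 (-1.40), Cxcl10 (-0.87), Il1a (-1.32), Il23a (-1.21), Lif (-1.52) and Csf2 (-0.77) fell with them. Tslp and Il33, the latter at a low level, were thus higher in all 4 lung libraries than in any tumor library. For Cxcl1 and Cxcl16 all 4 lung libraries lay below all 4 tumor libraries.

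Of 31 interferon-stimulated genes 28 were tested, 7 were higher (25%, against 12% of all genes) and 2 were lower (7.14%, against 9.82%), with a median of 0.25. The largest were Cmpk2 (1.82, adjusted p = 0.00383) and Ifit1 (1.33, adjusted p = 0.0206), both low genes at 1.92 ± 0.98 and 5.02 ± 1.28 CPM in lung and 0.543 ± 0.31 and 1.99 ± 0.91 CPM in tumor. The antiviral gene Bst2 (-1.28, adjusted p = 0.011) and the factor gene Irf1 (-0.40, adjusted p = 0.0211) fell. The call of Ifit1 ended without lung shRenilla D, tumor shRenilla A or tumor shRenilla B (adjusted p up to 0.0852), that of Bst2 without tumor shRenilla B (adjusted p = 0.0537), and that of Irf1 without lung shRenilla B or tumor shRenilla B (adjusted p up to 0.117). Of 19 genes of MHC class I presentation 17 were tested, 3 were higher (17.6%, against 12% of all genes) and 0 were lower. The higher ones were the immunoproteasome subunits Psmb9 (1.16) and Psmb8 (1.08) and the class I gene H2-T23 (0.48). Without lung shRenilla B 3 were higher and 1 lower. Psmb8 had 23, 20, 22.5 and 34.6 CPM in lung and 12.7, 11.6, 8.91 and 14.3 CPM in tumor, without overlap (adjusted p = 9.03e-05). H2 genes and Ifit genes have near copies, so reads may be divided between relatives.

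Leukocyte markers moved in the same direction at low levels. The 5 of them summed to 2.69 to 3.78 CPM in lung and 0.499 to 0.779 CPM in tumor, with 2 of 3 tested genes higher, Cd53 (3.39) and Coro1a (1.31). Ptprc, the gene of CD45, had 43 counts over the 4 lung libraries and 25 over the 4 tumor libraries and was not called, and Cd52 had 1 and 0 counts. Macrophage markers summed to 14.9 to 21.9 CPM in lung and 9.71 to 11.6 CPM in tumor, most of it Mrc1. Of 3 tested macrophage markers 2 were higher, Mrc1 (0.69) and Lyz2 (2.23), and 0 were lower. Itgam, not tested, had 20 counts in lung and 3 in tumor, while Csf1r, also not tested, had 7 counts in lung and 33 in tumor. Neutrophil markers summed to 4.04 to 7.42 CPM in lung and 1.4 to 2.28 CPM in tumor, nearly all S100a8 (1.69), whose partner S100a9 had 1 count in lung and 0 in tumor. Their part in the cytokine and interferon values was not tested. Alveolar and airway markers, which lung tissue would bring, summed to 0.0596 to 0.108 CPM in lung and 0 to 0.0667 CPM in tumor, with 1 count of Sftpc in all 8 libraries. T and B cell markers were at 0 to 0.0596 CPM in lung and 0.035 to 0.0742 CPM in tumor. Endothelial markers summed to 1.73 to 4.34 CPM in lung and 1.89 to 3.52 CPM in tumor, and adipocyte markers to 0.53 to 1.34 CPM in lung and 0.701 to 0.841 CPM in tumor. Smooth muscle markers summed to 1.43 to 2.69 CPM in lung and 0.853 to 1.1 CPM in tumor, with Acta2 the 1 tested. The 8 carcinoma epithelium markers summed to 431 to 607 CPM in lung and 760 to 919 CPM in tumor, and 5 of them were lower. Krt8, Krt18 and Krt19 were the 3 not called. In lung Krt8 and Krt18 made up most of the sum, while tumor also had 151 to 288 CPM of Cdh1, 71.1 to 87 CPM of Krt7 and 60.1 to 104 CPM of Epcam.

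Receptor tyrosine kinases and their ligands also went both ways. Of 28 listed 23 were tested, 7 were higher (30.4%, against 12% of all genes) and 6 were lower (26.1%, against 9.82%). The median of the list was -0.18. Beside Macc1 and Pdgfb the lower ones were the ligand genes Vegfc (-1.18), Nrg1 (-0.90) and Pdgfa (-0.52) and the collagen receptor gene Ddr1 (-0.70). The higher ones included the ligands of the EGF receptor Ereg (3.72), Tgfa (1.18) and Areg (0.72) and the receptors Mertk (1.73), Pdgfra (1.05) and Fgfr1 (1.01). Ereg was a low gene, with 1.25, 2.28, 0.968 and 1.7 CPM in lung and 0.0371, 0.0713, 0.1 and 0.245 CPM in tumor, without overlap (adjusted p = 0.000135). Of 17 genes that others have tied to the spread of breast cancer to the lung, 16 were tested. Of these, 1 was higher, Ereg (6.25%, below the 12% of all genes). Lower were 6 (37.5%, against 9.82% of all genes): Angptl4 (-1.09), Cxcl1, Ptgs2 (-0.76), Vcam1 (-1.20), Postn and Mtdh (-0.48). Without lung shRenilla B, where 13.8% of all genes were higher, 3 were higher and 6 lower. Slpi and Serpine2 are secreted protease inhibitors described as drivers of vascular mimicry in 4T1 cells. Slpi had 322, 171, 331 and 427 CPM in lung and 110, 65.5, 60.9 and 101 CPM in tumor, without overlap and lowest of its group in lung shRenilla B (1.89 ± 0.29, adjusted p = 2.19e-05).

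Genes of cholesterol and fatty acid synthesis were the metabolic list with the most calls. Of 34 listed genes 33 were tested, 24 were lower (72.7%, against 9.82% of all genes) and 0 were higher (median -0.64). Their mean log2 CPM was 4.71 to 4.77 in the lung libraries and 5.32 to 5.49 in the tumor libraries. Cyp51, lanosterol demethylase, had 52.6, 77.7, 41.7 and 44.5 CPM in lung shRenilla A to D and 176, 138, 149 and 118 CPM in tumor shRenilla A to D (-1.42 ± 0.19, adjusted p = 2.21e-06). All 4 lung libraries were below all 4 tumor libraries, with lung shRenilla B the highest of its group. Among the regulators, Srebf2, the sterol-responsive transcription factor, fell (-0.95, adjusted p = 5.56e-05), as did its inhibitor gene Insig1 (-1.36, adjusted p = 5.56e-06). On the fatty acid side Fads2, a desaturase, had the largest fold (-1.79, adjusted p = 6.44e-05) at 0.574 ± 0.23 CPM in lung and 1.97 ± 0.51 CPM in tumor. Scd2 (-0.89), Elovl6 (-0.63) and Fasn (-0.48, adjusted p = 0.00996) fell too. Srebf1, Acly, Mvk and Dhcr7 were among the 9 not called. Without lung shRenilla B 23 were lower and 0 higher.

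Other metabolic and stress lists held fewer calls. Of 30 antioxidant genes of the factor NRF2, 29 were tested (median 0.18). Of these, 9 were higher (31%, against 12% of all genes) and 4 were lower (13.8%, against 9.82%). Nfe2l2, the gene of NRF2, had 200, 217, 196 and 208 CPM in lung and 123, 120, 94.8 and 131 CPM in tumor, without overlap (0.81 ± 0.12, adjusted p = 1.25e-05). Its targets Nqo1 (0.64), Slc7a11 (0.59), Me1 (0.62) and Srxn1 (0.52) were higher, as were the glutathione transferases Gstm1 (1.18) and Gstm2 (1.12), near copies of each other. The exporter gene Abcc1 (-0.63, adjusted p = 0.006) was among the lower ones. Without lung shRenilla B 12 were higher and 3 lower. Of 35 genes of hypoxia and glycolysis 33 were tested, 5 were higher (15.2%, near the 12% of all genes) and 0 were lower (median 0.20). Without lung shRenilla B 10 were higher, where 13.8% of all genes were. Bnip3, a mitophagy receptor induced by hypoxia, had 283, 301, 276 and 278 CPM in lung and 140, 112, 86.4 and 134 CPM in tumor (1.27 ± 0.26, adjusted p = 0.000684), and its relative Bnip3l followed (0.60, adjusted p = 0.0046). Car9 was not called (0.29).

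Lists around asparagine and amino acid stress held few calls. Of 17 enzymes of asparagine, aspartate and glutamine, 14 were tested. Of these, 1 was higher, Gfpt1 (0.49, adjusted p = 0.0219), and 1 was lower, Gls2 (-0.63, adjusted p = 0.00448). Each is 7.14%, below the 12% of all genes that were higher and the 9.82% that were lower. Without lung shRenilla B 0 were higher and 2 lower. The call of Gfpt1, which uses glutamine to make hexosamine, rested on lung shRenilla B, at 79.9 CPM with 43.6 to 48 CPM in the other lung libraries, and ended without it and without any one of tumor shRenilla A, B and D (its adjusted p reached 0.131). Of 35 genes of the ATF4 amino acid response 31 were tested, 4 were higher (12.9%, near the 12% of all genes) and 5 were lower (16.1%, against 9.82%), with a median of 0.14. Atf4 itself averaged 142 ± 14.5 CPM in lung and 191 ± 27.8 CPM in tumor, without overlap (-0.43 ± 0.12, adjusted p = 0.00951). The amino acid transporters Slc1a5 (-0.81), Slc7a5 (-0.77) and Slc3a2 (-0.50) fell, and Cebpb (0.80), Cth (0.67), Slc7a11 and Nupr1 (0.54) were higher. The call of Cth ended without tumor shRenilla C (adjusted p = 0.091). Of 20 cytosolic aminoacyl-tRNA synthetases 2 were lower (10%, near the 9.82% of all genes), Tars (-0.29) and Eprs (-0.28), and 0 were higher. The call of Eprs ended without lung shRenilla B or D or tumor shRenilla D, and both calls ended when the fit held the 8 shRenilla libraries alone (adjusted p = 0.128 for Tars and 0.168 for Eprs). Of 27 genes of endoplasmic reticulum chaperones and the unfolded protein response 26 were tested. Of these, 1 was higher (3.85%, below the 12% of all genes), Xbp1 (0.65), and 0 were lower. All 35 respiratory chain subunits were tested and 1 was lower (2.86%, below the 9.82% of all genes), while without lung shRenilla B 2 were higher and 2 lower. The lower gene was Cyc1 (-0.32), a call that ended without lung shRenilla A or B or tumor shRenilla A, B or C (adjusted p up to 0.163). All 35 genes of mitosis and DNA replication were tested, 4 were higher (11.4%, near the 12% of all genes) and 0 lower, among them Ccnb2 (0.76, adjusted p = 0.000243), and without lung shRenilla B 7 were higher. Of 39 ribosomal protein genes 10 were lower (25.6%, against 9.82% of all genes) and 1 was higher (median -0.25), and 5 were lower without lung shRenilla B. Ribosomal genes have many processed copies, so their reads are uncertain.

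**Figure D2:**
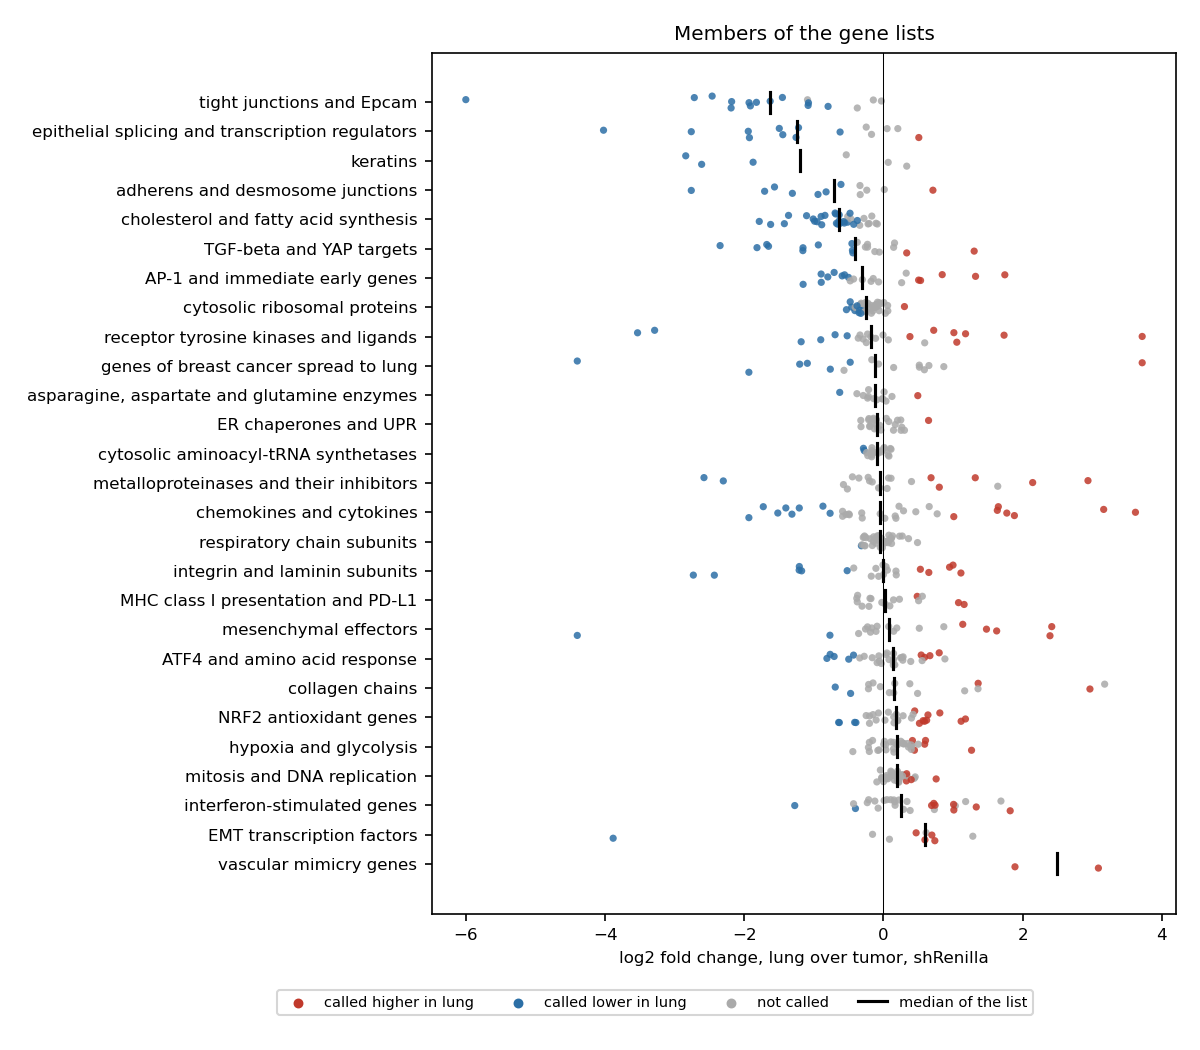
Log2 fold change of lung over tumor in shRenilla for each tested member of 27 gene lists, ordered by the list's median (black bar), with called genes coloured by direction. The median is -1.63 for tight junctions and Epcam and -0.64 for cholesterol and fatty acid synthesis, while most members of the respiratory chain and tRNA synthetase lists lie near 0.

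The same site comparison was made in cells with the other hairpins, which share no library with it. In cells with shAsns-2, lung against tumor gave 2642 called genes (20.9%), 1270 higher and 1372 lower. Of the 2749 genes called in shRenilla, 1726 were called in the same direction there, which is 62.8% of the shRenilla calls and 65.3% of the shAsns-2 calls, and 0 were called in the opposite direction. Over all 12625 genes the log2 fold changes of the 2 comparisons had a Pearson correlation of 0.83 and a Spearman correlation of 0.75, given as a description across genes, which are not independent. Of the named genes, Tslp had log2 fold changes of 3.62 in shRenilla and 2.70 in shAsns-2, Spp1 of 2.39 and 1.32, Cdh1 of -2.76 and -2.83, Esrp1 of -4.02 and -3.67 and Epcam of -1.91 and -2.59. Tight junction genes had medians of -1.63 in shRenilla and -1.87 in shAsns-2, and cholesterol and fatty acid genes of -0.64 and -0.94. The difference between the 2 site effects was called by edgeR in 0 of 12625 genes, with a smallest adjusted p of 0.281. An unadjusted p below 0.05 was reached by 599 of them. In this fit that is a share under 0.05, so no more than would be reached with no difference in any gene. Other edgeR fits lay on either side of that share. They gave 382 of 12737 genes without lung shRenilla B, and 880 of 12697 without it and lung shAsns-2 D (smallest adjusted p = 0.0578). DESeq2 called 1 gene and limma with library weights 0. By limma 1247 of 12625 genes had an unadjusted p under 0.05, which is above that share.

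In libraries labelled shAsns-1 the site comparison was different. There 1079 genes were called (8.55%), 758 higher and 321 lower in lung. Of the shRenilla calls 296 were called in the same direction, 10.8% of the shRenilla calls and 27.4% of the shAsns-1 calls, and 88 in the opposite one. Across 12625 genes the Pearson correlation was 0.26 and the Spearman correlation 0.08. The difference itself was called in 1797 genes, 14.2% of those tested, 918 above and 879 below 0. Asns goes against the label in these libraries, at 194 ± 18.2 CPM in lung and 170 ± 17.1 CPM in tumor. With shRenilla it had 63.6 ± 7.89 CPM in lung and 82.8 ± 15.9 CPM in tumor. With shAsns-2 it had 44.6 ± 6.51 CPM in lung and 36.8 ± 10.3 CPM in tumor. Under the label shAsns-1 the sites overlapped for Tslp, with 311 to 451 CPM in lung and 342 to 575 CPM in tumor. They also overlapped for Pdgfb, with 2.57 to 2.93 CPM in lung and 2.2 to 5.74 CPM in tumor. Cdh1 was lower in lung there too, with 18.6 to 24.5 CPM in lung and 29.9 to 47.6 CPM in tumor (-0.84, adjusted p = 0.00448). Whether the libraries labelled shAsns-1 and shRenilla carry the hairpins of their labels was not tested, and every direction here is one between labels.

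**Figure D3:**
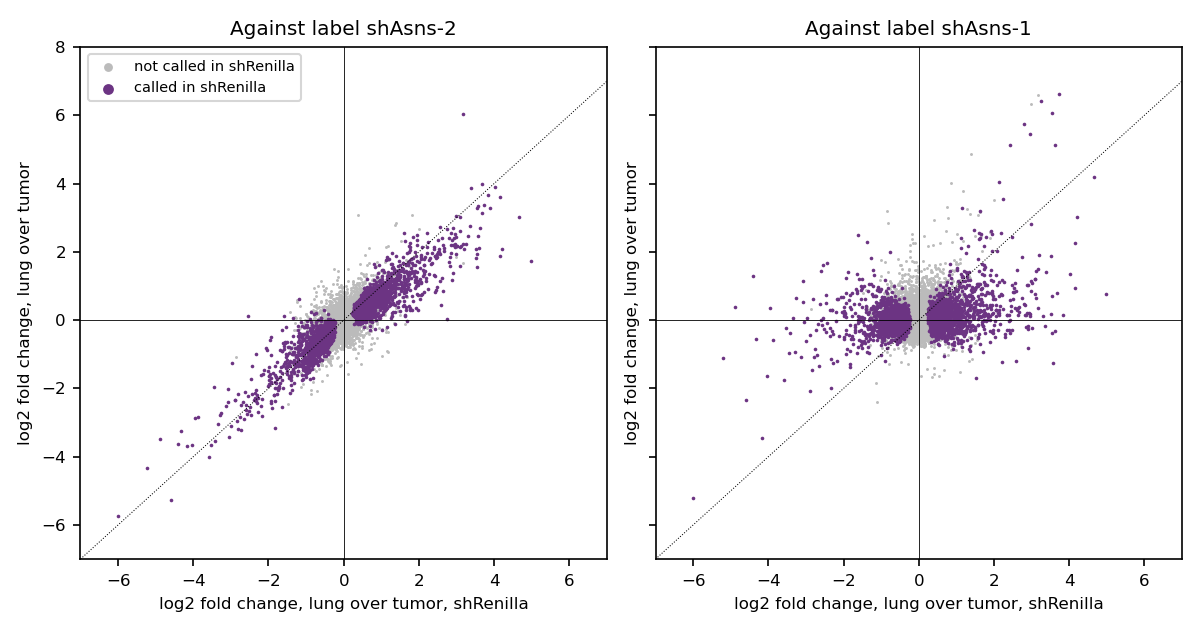
Log2 fold changes of lung over tumor for 12625 genes in shRenilla (x axis) against those in shAsns-2 (left) and in libraries labelled shAsns-1 (right), with genes called in shRenilla in purple and the line of equality dotted. The called genes follow the line on the left, where 98.4% have the same sign, and spread along the x axis on the right, where 57% do.

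The genes that were higher in lung were not spread evenly over the genome. Of 719 tested genes on chromosome 9, 223 were called higher (31%, against 12% of all genes) and 31 lower (4.31%, against 9.82%), with a median log2 fold change of 0.27. Of these 719 genes 78.3% had a log2 fold change above 0, against 50.1% of all genes. Casp1 (9:5298517-5307265, plus strand, GRCm38), Mmp3 (9:7445822-7455975, plus) and Ccnb2 lie there, and so does Mpzl2 (9:45039799-45054015, plus), which was lower. In windows of 10 Mb every median along the chromosome was above 0, from 0.01 to 0.39. In each library, genes were set against their mean over 24 libraries. The level of the chromosome was the median of 574 of its genes minus the median of genes on the other chromosomes. It was 0.08 to 0.15 (log2) in lung shRenilla and -0.16 to -0.14 in tumor shRenilla. Over all 24 libraries it was 0.08 to 0.19 in the 12 lung libraries and -0.17 to -0.01 in the 12 tumor libraries, so the sites did not overlap, under the label shAsns-1 included. The median log2 fold change of the chromosome was 0.24 in shAsns-2 and 0.24 in libraries labelled shAsns-1. In shRenilla without lung shRenilla B it was 0.27, and 35.6% of the chromosome's genes were higher, against 13.8% of all genes.

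Chromosome 6 was next, with 21.9% of 607 genes higher and a median of 0.14, and chromosome 15 had 18.4% of 489 genes lower and a median of -0.15. On both the 4 lung and the 4 tumor libraries were apart in median level relative to the other chromosomes, but over 24 libraries they overlapped. Genes of a chromosome are not independent, so these shares are given with no test. Asns lies on chromosome 6 (6:7675169-7693254, minus strand) and Cdh1 on chromosome 8 (8:106603351-106670246, plus).

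**Figure D4:**
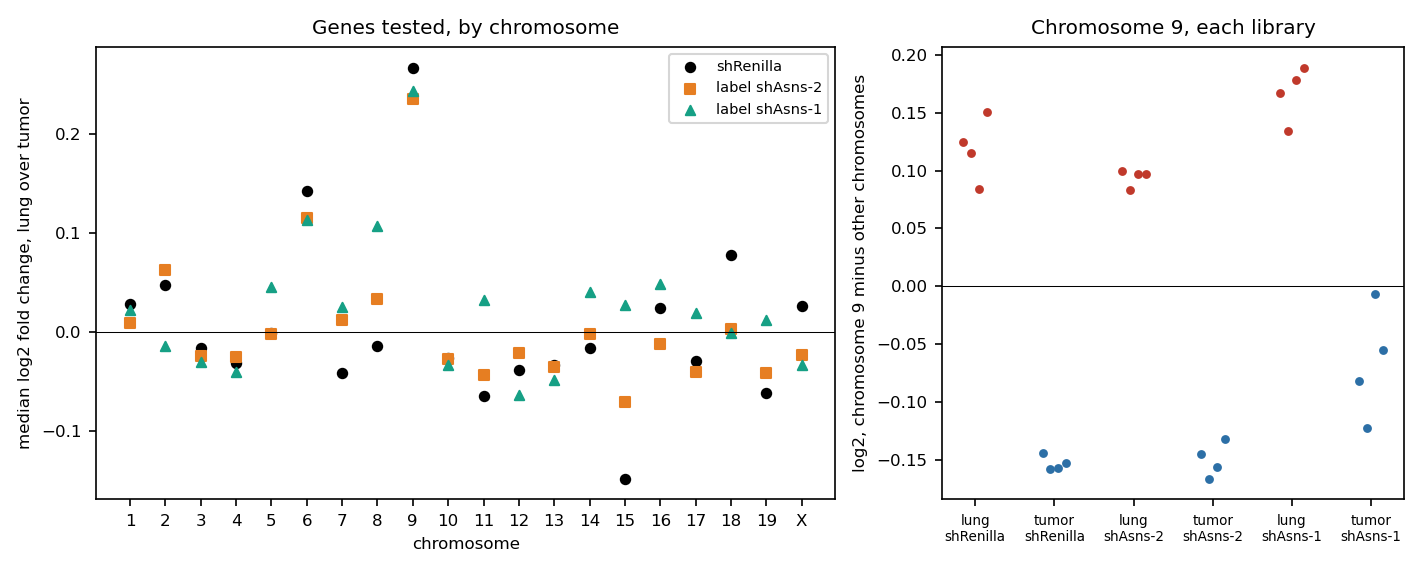
Left, median log2 fold change of lung over tumor by chromosome in the 3 site comparisons. Right, median level of chromosome 9 relative to the other chromosomes in each of 24 libraries (log2). Chromosome 9 is highest in all 3 comparisons on the left (0.27, 0.24 and 0.24), and on the right the 12 lung libraries (red) lie above the 12 tumor libraries (blue).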

How the data were processed

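The authors deposited unnormalized read counts by gene symbol for 24 libraries, used here unchanged. The submitters' processing notes name Bowtie2, HTSeq and mm10, with no versions. Per the labels, RNA was extracted with Trizol and the library kit was NuGEN Ovation RNAseq V2. The annotation, strand setting and filters are not given in the sources used here, so reads of overlapping or antisense genes cannot be told apart.

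The test was the quasi-likelihood test of edgeR 4.0.16 (R 4.3.3) with robust dispersion, on all 24 libraries with 1 mean for each of 6 groups (18 residual degrees of freedom), TMM scaling and filterByExpr. Calls had a Benjamini-Hochberg adjusted p under 0.05 over 12625 genes. A standard error is the size of the log2 fold change divided by the root of its F statistic. The biological coefficient of variation was 14.9%. Alternatives were DESeq2 1.42.0, its size factors, limma 3.58.1 with library weights, a fit of the 8 shRenilla libraries alone, no filter, the replicate letter as a block, GC content and length offsets, each library left out, and, chosen after seeing the data, the pair lung shAsns-2 D and lung shRenilla B left out together.

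The genes, lists and tests were chosen with earlier results of these data known. Genes named by rule were Asns and Hprt, the 12 highest and 12 lowest called genes with a mean log2 CPM of 3 or more and the groups apart (unnamed gene models left out), up to 2 called members of each list in each direction, all tested EMT factors, and Cdh1, Epcam, Esrp1, Krt8, Krt18, Vim, Fn1, Slpi and Serpine2. Other list members were picked with their values known. Some genes that enter the counts, 2 of them named by rule, are not reported here. Positions are from GENCODE M21 (GRCm38), by symbol. All libraries entered the reported values, and no 2 of the 8 shRenilla libraries were duplicates. Libraries labelled shAsns-1 and shAsns-2 were not checked for duplicates.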

Additional observations from a re-analysis of the deposited data

Results flagged for a closer look

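Among 202 checks of 101 named genes in the 2 groups of 4 libraries, 18 had 1 library far from the other 3 of its group, where chance gives about 1 in 20. Lung shRenilla B was that library in 14 of them. It was the highest of its group for Hprt (799 CPM, others 559 to 574), Amigo2 (68.8 CPM), Phex (287 CPM), Gem (25.9 CPM), Esrp1 (3.88 CPM) and Zeb2 (145 CPM). The same held for Col8a1 (331 CPM), Adamts1 (46.5 CPM), Gfpt1 (79.9 CPM), Bnip3l (379 CPM) and Dusp6 (484 CPM). It was the lowest for Krt7 (8.08 CPM, others 11.8 to 12.4), Krt8 (140 CPM, others 195 to 197) and Krt18 (207 CPM, others 321 to 328). Of these 14 genes, the call of Gfpt1 ended without lung shRenilla B (adjusted p = 0.113 by edgeR), and also without tumor shRenilla A, B or D in turn. In tumor shRenilla, Mpzl2 was low in D (64.2 CPM), and Foxc2 (17.3 CPM), Gfpt1 (46.7 CPM) and Vim (3150 CPM) were high in C.

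The site effect in shRenilla differed from that in libraries labelled shAsns-1 in 68 of the 101 named genes, by edgeR's test of the difference, and in 0 of them from that in shAsns-2. Over all 12625 genes tested, 1797 (14.2%) differed from shAsns-1. Most named genes were chosen for their fold change or call in shRenilla, which enters the difference. The choice itself therefore raises the share among them. Values are differences of log2 fold changes, shRenilla minus shAsns-1. Among genes with a larger value in shRenilla were those of signals and the matrix: Tslp (3.95), Amigo2 (3.94), Angpt1 (2.49), Spp1 (2.25), Dll4 (1.99), Serpine2 (1.89), Slpi (1.89), Mmp3 (2.72), Mertk (1.62) and Col6a1 (0.92). Enzyme, transporter and signalling genes were Casp1 (2.15), Trib2 (3.17), Phex (2.68), Slco4a1 (1.43), Gem (1.92), Dusp6 (1.39), Cth (1.72), Gstm1 (1.57) and Gstm2 (0.94). Regulators and others were Egr2 (1.59), Cebpb (0.65), Zeb2 (0.73), Twist1 (0.77), Tcf4 (0.53), Rbm47 (0.70), Bnip3 (1.61), Bnip3l (0.82), Ccnb2 (0.67), Ppl (1.18) and Vim (0.49).

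Junction, keratin and epithelial genes had a lower value in shRenilla: Cdh1 (-1.92), Dsg2 (-1.50), Cldn3 (-1.68), Epcam (-1.06), Esrp1 (-2.38), Krt7 (-1.38), Krt14 (-3.09), Mpzl2 (-2.39), Serpinb5 (-2.06), Lama3 (-2.44) and Itgb6 (-2.34). So did the secreted factors and proteases Fgfbp1 (-2.27), Pdgfb (-3.29), Il24 (-2.54), Cxcl1 (-1.65), Cxcl16 (-2.20), Ctgf (-2.64), Cyr61 (-2.55), Adamts1 (-2.43) and Adam12 (-2.59). Matrix genes were Postn (-5.68), Loxl2 (-1.06) and Col7a1 (-1.10). Regulators were Macc1 (-2.37), Snai3 (-3.29), Jund (-1.27), Junb (-1.31), Irf1 (-0.87) and Bst2 (-3.10). Metabolic genes were Moxd1 (-2.99), Fads2 (-1.33), Slc1a5 (-0.87), Slc7a5 (-0.87), Tars (-0.52), Eprs (-0.45), Abcc1 (-0.70) and Osgin1 (-1.05). The values of Fgfbp1 in tumor were 67 to 95.4 CPM with shRenilla and 3.36 to 11.5 CPM under the label shAsns-1.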

How the results depend on the processing

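Of 101 named genes 80 kept their side of the threshold in every alternative that gave a value (16, and 15 for Prrx1), and no called gene changed direction. The 2749 calls numbered 2246 (without tumor shRenilla C) to 3227 (without lung shRenilla B) with 1 library left out, with 979 to 1465 lower and 1226 to 1762 higher. Limma with library weights called 4622 (2343 higher, 2279 lower), no filter 2373, a fit of the 8 shRenilla libraries alone 1869, and offsets for GC content and length 3644. With lung shAsns-2 D and lung shRenilla B both left out, a choice made after seeing the data, 1949 were higher and 1947 lower. The difference from shAsns-2 was called in 0 genes, and in 0 or 1 with 1 library left out, 1 of them without lung shRenilla B, and in 1 by DESeq2. That from shAsns-1 numbered 3707 by limma. The cause was not tested. The share of higher genes among the calls was 50 to 56.8%. With the replicate letter as a block 2743 genes were called. Same-letter libraries of the 2 sites correlated at -0.06 to 0.06 in their deviations, and different-letter libraries at -0.094 to 0.118. These values cannot tell whether libraries that share a letter also share a mouse or preparation. Depth limits most the genes with few counts, such as Snai3 and Postn.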

Other observations

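Among the genes furthest below the other lung shRenilla libraries in lung shRenilla B were histone genes and the ribosomal RNA gene Rn45s (-2.76). Hist1h4d lay 4.94, Hist1h2ae 2.89 and Hist1h2ag 2.79 log2 units below the mean of A, C and D, while Mir17hg lay 1.32 and Col4a5 1.27 above it. The mean gene length, weighted by counts, was 5.59 kb in lung shRenilla B, against 5.10 to 5.35 kb in the other 7 libraries.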
